A study of Mus musculus with 18 samples.

Results

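Trim59 encodes a ubiquitin ligase of the tripartite motif (TRIM) family, and its transcript was followed here in tumours of the TRAMP mouse and in normal mouse prostate. Every probe set whose only gene symbol is Trim59 was taken, which gave 2 of the 45101 probe sets on the array, 1416118_at and 1431430_s_at. The groups were 9 TRAMP tumours, named as such in the labels with no further detail, and 9 normal prostates, dissected from the ventral and dorsolateral lobes. Each sample's total RNA went on an Affymetrix array of its own, 18 in all. The labels give no strain, age or tumour stage and do not say whether samples of a group are separate animals. The p-values below therefore measure only the spread between these samples, which may be technical. The number of arrays limits the precision.

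TRAMP (Transgenic Adenocarcinoma of the Mouse Prostate) mice carry the early region of the simian virus SV40 under the rat probasin promoter, which is active in androgen-responsive prostate epithelium. The large T antigen made from it binds the retinoblastoma proteins and so frees the E2F transcription factors, which switch on genes of DNA replication and division. TRIM proteins carry a RING finger, which recruits ubiquitin-conjugating enzymes, followed by B-box zinc fingers and a coiled coil. Trim59 belongs to the TRIM proteins with a membrane-spanning segment near the carboxyl end, has been described as an effector of SV40 and Ras oncogene signalling, and binds Ecsit, an adaptor of Toll-like receptor signalling.

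The promoter of Trim59 is shown because the genes whose levels followed Trim59 are described further on, and 4 short motifs were looked for in all of them. In RefSeq on GRCm38.p6 the 300 bases from 250 before to 50 after the gene's start lie at chr3:69044693-69044992 on the minus strand. The capitals mark a match to the cell cycle homology region (CHR, TTTGAA) and a match to the CCAAT box, both on the strand opposite to the one printed:
Trim59 promoter: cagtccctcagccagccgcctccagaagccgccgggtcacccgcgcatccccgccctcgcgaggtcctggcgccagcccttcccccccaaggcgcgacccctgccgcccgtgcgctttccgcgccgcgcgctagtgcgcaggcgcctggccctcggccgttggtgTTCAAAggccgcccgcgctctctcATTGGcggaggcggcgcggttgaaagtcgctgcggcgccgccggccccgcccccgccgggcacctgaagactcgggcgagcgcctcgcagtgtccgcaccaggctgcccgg
The CHR match began 85 bases before the start, and the CCAAT match 61 bases before it. The Sp1 motif GGGCGGG matched on the opposite strand too, at 201 and 16 bases before the start. The E2F motif was searched as TTCCCGC or as TTCGCGC, as TTGCCGC or as TTGGCGC. It matched on neither strand, which says only that these letters are not in this window. No 2 of the matches overlap. Of 32817 mouse promoters of this length, 17.9% hold the CHR letters, 37.4% the CCAAT letters, 25.6% the Sp1 letters and 9.57% an E2F motif. GC bases make up 76.7% of the Trim59 promoter, against a median of 52.7% over all promoters, and 97.6% of promoters have a lower share.

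The values are intensities made with MAS5, given below as signal or as log2(signal + 16), on which scale a difference understates the change of dim genes. A gene is called dim on an array where it lies under the 40th percentile of that array, which was a signal of 104 to 154. After a filter on dim probe sets, 12791 genes were tested with limma, and 3067 of them (24%) differed at a Benjamini-Hochberg adjusted p under 0.05. Of these, 1444 (11.3% of genes tested) were higher and 1623 (12.7%) lower in tumours. Centring the arrays on housekeeping genes gave 901 higher of 2777 called, and centring on their 75th percentile gave 1121 of 3185. Bacterial poly-A control probe sets split the arrays into a technical batch with bright spikes (tumours 1 to 5, normal prostates 1 to 6) and one with dim spikes (tumours 6 to 9, normal prostates 7 to 9). Tumours 3, 5 and 7 and normal prostate 9 were high in genes of the seminal vesicle, a gland that adjoins the prostate. Over 3 seminal vesicle genes above the filter of 8 listed, the mean log2 level was 15.23, 15.55 and 15.35 in those tumours and 5.13 to 12.45 in the other 6, against 14.08 in normal prostate 9 and at most 9.27 in the other normal prostates. Tumours 6 and 8 were the most alike pair of tumours (r = 0.950 over genes), ahead of tumours 1 and 9 (r = 0.936). The actin 3' to 5' ratio, which grows as RNA degrades, was 1.12 ± 0.506 in tumours and 1.71 ± 0.692 in normal prostates (log2, SD, n = 9 each).

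By 1416118_at, the brighter probe set, Trim59 was high in every tumour and dim in every normal prostate. The signal in tumours was lowest at 873, had a median of 2148 and was highest at 5252. In normal prostates it was lowest at 39.5, had a median of 59.6 and was highest at 117. The groups did not overlap, all tumours lying above all normal prostates, as was so for 1.45% of genes, and the lowest tumour was 7.47 times the highest normal prostate. Mean log2 levels were 11.06 ± 0.965 in tumours and 6.31 ± 0.422 in normal prostates (SD, n = 9 each), a difference of 4.75 ± 0.333 (SE). Since the probe set was dim on 9 of 9 normal arrays, the fold is a lower bound: tumours were at least 15.3-fold above the 40th percentile of the normal arrays. It was chosen by this difference between tumours and normal prostates, so these values are a description and no test is given. In whole tissue, a change in the number of cells that make a transcript and a change in the RNA made per cell cannot be told apart. Markers of some cell types differed between the groups, where 12.7% of all genes were called lower and 11.3% higher in tumours. Lower were 5 of 5 tested adipocyte genes (median difference -4.23) and 4 of 4 genes of prostate secretion (-5.62). Among the adipocyte genes, Cidec and Pck1 were dim on 8 tumours each and Adipoq on 7. Among the secretion genes, Msmb was dim on 6 tumours and Spink1 on 5. These passed the filter mostly through the normal arrays. Of luminal genes 1 of 8 was lower (-1.39), or 12.5%, near the share of all genes. Of fibroblast genes 3 of 7 were higher (0.96) and of macrophage genes 3 of 11 (0.95). Of seminal vesicle genes 1 of 3 was higher (3.16). Of neuroendocrine genes 1 of 2 tested was higher (1.62), while 12 were listed and 11 were on the array, most of them under the filter. Called were 0 of 7 smooth muscle and 0 of 6 endothelial genes. The part of these markers in the differences of Trim59 and of the genes below was not tested.

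Within its array, Trim59 by 1416118_at lay near the top of the expression range in tumours and in its lower part in normal prostates. It stood between the 83.3rd and the 97.5th percentile of the probe sets of its array in tumours, and between the 19.7th and the 37.9th in normal prostates. Among tumours, 9, 2 and 1 had the highest signals, at 5252, 4710 and 4080. Tumours 8, 6, 3 and 4 followed at 2240, 2148, 1648 and 1231. Tumours 7 and 5 were lowest, at 975 and 873. The highest tumour was 6.02 times the lowest, and the tumours spread over 2.57 on the log2 scale. The order held a step below tumours 1, 2 and 9, while tumours 6 and 8, the most alike pair of arrays, lay next to each other. Among normal prostates, normal 5 was highest at 117 and normal 4 lowest at 39.5, and since all 9 were dim their order is not read further.

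**Figure D1:**
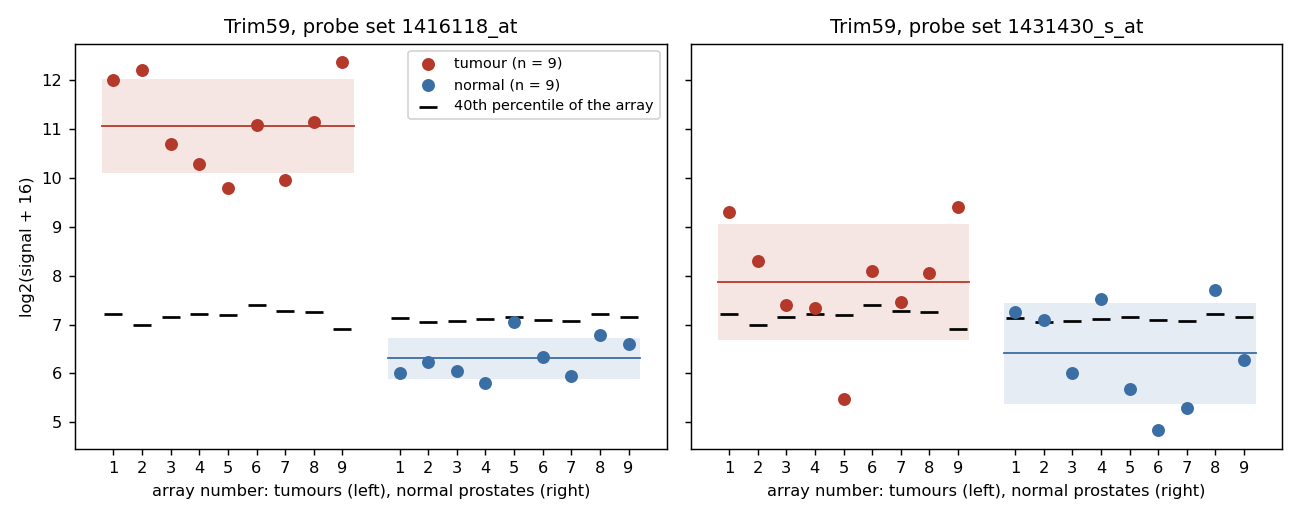
Trim59 in each array by its 2 probe sets, as log2(signal + 16), with tumours on the left and normal prostates on the right of each panel. Lines give the mean and shading the SD over 9 arrays, and black dashes the 40th percentile of each array. By 1416118_at all tumours lie above all normal prostates, which sit under the dashes, and by 1431430_s_at the groups overlap.

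The other probe set, 1431430_s_at, gave dimmer and less separated values. Its signal in tumours was lowest at 28.3, had a median of 250 and was highest at 662, against 12.5, 61.6 and 192 in normal prostates. The groups overlapped: 5 tumours lay above the highest normal prostate, and tumour 5 was lower than 7 of the 9 normal prostates. Mean log2 levels were 7.87 ± 1.18 in tumours and 6.41 ± 1.03 in normal prostates (SD, n = 9 each), a difference of 1.46. This probe set was dim on 1 of 9 tumour arrays and 5 of 9 normal arrays. Its suffix marks probes that can match several transcripts. Across the 9 tumours its levels followed those of 1416118_at (r = 0.87), and across the 9 normal prostates they did not (r = -0.10). These values are a description, since both probe sets were read on the same arrays. The size of the Trim59 difference therefore rests on 1416118_at, and the mean of the probe sets gave 3.10.

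The difference was as large within each technical batch. Among arrays with bright spikes, the Trim59 mean log2 level was 10.998 ± 1.06 in 5 tumours and 6.25 ± 0.438 in 6 normal prostates (SD), a difference of 4.75. Among those with dim spikes it was 11.13 ± 0.985 in 4 tumours and 6.44 ± 0.444 in 3 normal prostates, a difference of 4.69. Between tumours, the bright batch minus the dim batch was -0.14 (exact permutation test over 126 splits, two-sided, p = 0.81, n = 5 and 4). Without the 4 arrays high in seminal vesicle genes the difference between tumours and normal prostates was 5.24, and with the actin ratio as a covariate it was 4.49.

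The rest of the TRIM family did not move as a group. Of 60 family members on the array besides Trim59, 43 were bright enough to be tested: 3 were higher in tumours, 5 were lower and 35 did not pass the threshold. That is 18.6% called, below the 24% of all genes, and the median difference was -0.03, against -0.01 over all genes. Trim28, a corepressor of KRAB zinc finger proteins, averaged 12.79 ± 0.427 in tumours and 12.26 ± 0.119 in normal prostates (SD, n = 9 each), a log2 difference of 0.54 ± 0.157 (SE, limma adjusted p = 0.0191). Trim10, a gene studied in red cell formation, was higher by 0.63 (limma adjusted p = 0.0278), and Trim35 by 1.29 (limma adjusted p = 0.0386). These 3 calls were lost when arrays were centred on housekeeping genes (limma adjusted p = 0.119, 0.0538 and 0.0727). That of Trim10 was also lost without normal prostate 4 or 6 (0.60), and that of Trim35 on leaving out any 1 of 10 arrays, tumours 1, 4 and 9 and normal prostates 1, 2, 4, 5, 6, 7 and 8 (1.08 to 1.33).

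Trim2, a ligase best known from neurons, had its lowest, median and highest log2 levels at 10.40, 12.01 and 13.10 in tumours, against 11.15, 13.58 and 14.39 in normal prostates. The groups overlapped, and the tumours were lower by -1.49 ± 0.423 (SE, limma adjusted p = 0.0158), with 5 further probe sets at -1.21 to -1.77. Trim68, a ligase described as a coregulator of the androgen receptor in human prostate cancer cells, ranged from 4.13 through a median of 8.11 to 9.69 in tumours, against 8.40, 9.33 and 10.08 in normal prostates. Its difference was -1.84 ± 0.539 (SE, limma adjusted p = 0.0193), and it was dim on 3 tumours. Trim41 was lower by -0.43 (limma adjusted p = 0.0091), Trim27 by -0.36 (limma adjusted p = 0.0379) and Trim11 by -0.52 (limma adjusted p = 0.0459). The other Trim41 probe set gave -0.10, and with the mean of probe sets the Trim41 call was lost (-0.27, limma adjusted p = 0.0721). The Trim27 call was lost on leaving out any array other than tumours 2, 3, 4 and 5 and normal prostates 3, 4 and 8 (-0.33 to -0.37), and the Trim11 call with any array other than tumours 4, 6, 7 and 8 and normal prostate 3 left out (-0.44 to -0.55). With the actin ratio as a covariate, 0 of the 43 family members passed. Trim13, the TRIM protein most like Trim59 in having a membrane-spanning segment, averaged 7.45 ± 1.07 in tumours and 7.46 ± 1.30 in normal prostates (SD, n = 9 each), a difference of -0.003 (limma adjusted p = 0.997) with a standard error of 0.524.

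**Figure D2:**
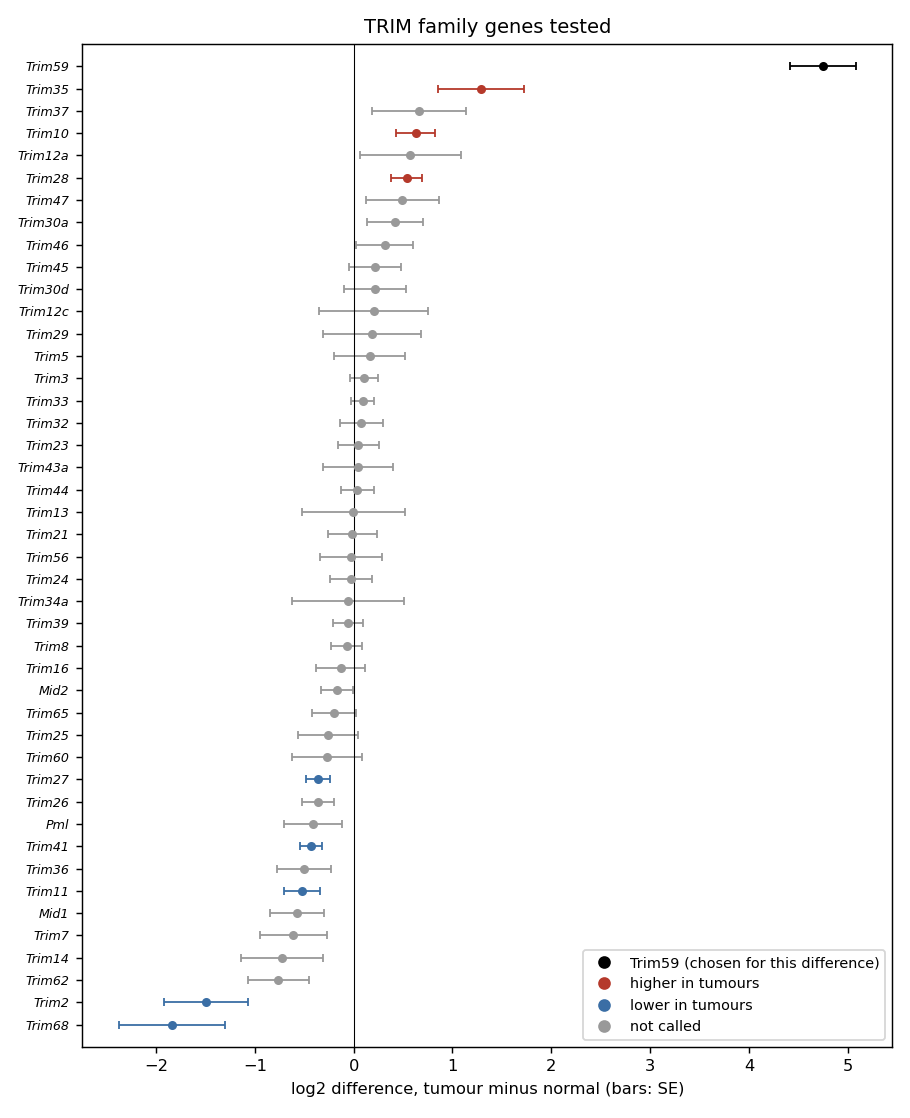
Log2 difference, tumour minus normal prostate, of Trim59 and the other TRIM family genes tested, ordered by size, with bars for the SE. Trim59 (black) stands at 4.75, which chose it, and the other members lie between -1.84 and 1.29, with red for genes called higher and blue for genes called lower in tumours.

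Of the nearest protein-coding genes along chromosome 3, 5 on each side of Trim59, 6 could be tested. In chromosomal order they run Schip1, Il12a, 1110032F04Rik, Ift80, Smc4, Trim59, Kpna4, Arl14, Ppm1l, B3galnt1 and Nmd3. Smc4, Ift80 and B3galnt1 were higher in tumours and none was lower, 3 of 6 against 11.3% of all genes called higher, with a median difference of 0.88. Il12a, 1110032F04Rik and Arl14 were too dim to be tested, and Schip1 was not analysed here.

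Smc4, which encodes the ATPase core of condensin, the complex that compacts chromosomes for mitosis, is the nearest gene on one side. Its lowest, median and highest log2 levels were 10.60, 11.81 and 13.24 in tumours, against 9.05, 9.36 and 9.78 in normal prostates. The groups did not overlap, as was so for 2.38% of all genes. The difference was 2.58 ± 0.305 (SE, limma adjusted p = 5.15e-05), with the other probe sets at 3.22 and 2.56 and the batches at 2.54 and 2.70. Ift80, a part of the machinery that builds cilia, averaged 9.25 ± 0.823 in tumours and 7.65 ± 0.946 in normal prostates (SD, n = 9 each). Its difference was 1.60 ± 0.393 (SE, limma adjusted p = 0.00679), the groups overlapped, and with the actin ratio as a covariate the call was lost (adjusted p = 0.0526). B3galnt1, a glycolipid-building enzyme, was higher by 1.61 ± 0.497 (SE, limma adjusted p = 0.0248), and this call was lost without normal prostate 1 (1.48), in the bright batch alone (adjusted p = 0.169), with the actin ratio (adjusted p = 0.0974) or with the replicate number as a block (adjusted p = 0.0544).

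Kpna4, a nuclear import receptor on the other side of Trim59, averaged 10.95 ± 0.427 in tumours and 10.85 ± 0.305 in normal prostates (SD, n = 9 each), a difference of 0.10 (limma adjusted p = 0.718). The phosphatase gene Ppm1l differed by -0.52 (limma adjusted p = 0.173) and Nmd3, a ribosome export adaptor, by 0.15 (limma adjusted p = 0.625).

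**Figure D3:**
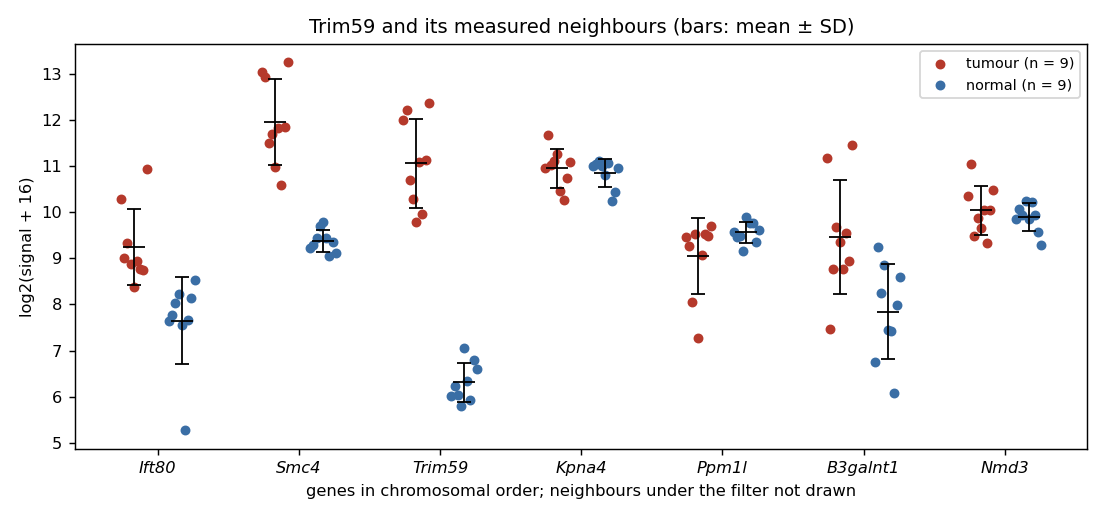
Log2(signal + 16) of Trim59 and its tested neighbours in chromosomal order, with a point for each array, tumours left of normal prostates and bars for mean ± SD (n = 9 each). Smc4 and Trim59 (by 1416118_at) have groups that do not overlap, and those of Kpna4, Ppm1l and Nmd3 overlap.

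Of 9 tested genes whose products have been reported to bind Trim59 or to be handled by it, 1 was higher in tumours and none was lower. That is 11.1% called, against 24% of all genes (11.3% called higher), with a median difference of 0.07. Macroh2a1, a histone variant of silent chromatin, averaged 11.86 ± 0.649 in tumours and 11.14 ± 0.272 in normal prostates (SD, n = 9 each). Its difference was 0.73 ± 0.230 (SE, limma adjusted p = 0.0285), a call lost with housekeeping centring (adjusted p = 0.112), the replicate block (adjusted p = 0.0608), the actin ratio (adjusted p = 0.159) or the bright batch alone (adjusted p = 0.147), and without tumour 1, tumour 2, normal prostate 4 or normal prostate 6 (0.65 to 0.69). Ecsit averaged 8.99 ± 0.328 in tumours and 9.24 ± 0.235 in normal prostates, a difference of -0.26 (limma adjusted p = 0.211), which passed in the bright batch alone (-0.42, limma adjusted p = 0.0453). The autophagy gene Becn1 differed by -0.15 (limma adjusted p = 0.437), the phosphatase gene Ptpn2 by 0.32 (limma adjusted p = 0.253) and the kinase gene Cdk5 by 0.12 (limma adjusted p = 0.626).

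In the innate immune pathway in which Ecsit acts, 1 of 20 tested genes was lower in tumours and none was higher, which is 5% called, against 24% of all genes (12.7% called lower), with a median difference of -0.20. Mavs, the mitochondrial adaptor of viral RNA sensing, ranged from 8.68 through a median of 9.82 to 10.61 in tumours, against 10.39, 10.72 and 11.01 in normal prostates. The groups overlapped, and the difference was -1.01 ± 0.211 (SE, limma adjusted p = 0.00257), with its other probe set at -0.68. The signalling genes next in rank, Irak1 (-0.48, limma adjusted p = 0.0528), Ikbkg (-0.35, limma adjusted p = 0.0860) and Ticam1 (-0.56, limma adjusted p = 0.0874), had negative differences that missed the threshold. All 3 passed it under centring on housekeeping genes or on the 75th percentile, which raised the number called to 4. Irak1 also passed with the 4 arrays high in seminal vesicle genes left out (-0.77, limma adjusted p = 0.00154) and without tumour 3, tumour 5, tumour 7 or normal prostate 9 (-0.52 to -0.57), Ikbkg without tumour 5 (-0.41) and Ticam1 without tumour 6 (-0.69). The kinase gene Map3k7 differed by 0.32 (limma adjusted p = 0.203), and by 0.53 (limma adjusted p = 0.0361) without those 4 arrays.

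Of 18 tested genes for host proteins that the T antigens bind or use, 6 were higher and 2 lower in tumours. That is 44.4% called, against 24% of all genes, with a median difference of 0.39. The DNA polymerase alpha genes, whose products large T recruits to viral DNA, were among them: Prim1 was higher by 2.46 ± 0.314 (SE, limma adjusted p = 6.65e-05) and Pola1 by 2.26 ± 0.350 (SE, limma adjusted p = 0.000269). Bub1, a kinase of the mitotic checkpoint, was dim on all 9 normal arrays and higher by at least 2.27 on the log2 scale. It passed the filter through the tumours alone, and without it 5 of 17 were higher. Among the retinoblastoma family, Rbl1 (p107) was higher by 1.61 ± 0.261 (SE, limma adjusted p = 0.000379) and Rbl2 (p130) lower by -0.71 ± 0.157 (SE, limma adjusted p = 0.00358). Rb1 itself averaged 10.79 ± 0.955 in tumours and 10.11 ± 0.279 in normal prostates (SD, n = 9 each), a difference of 0.68 (limma adjusted p = 0.123), which was 1.04 (limma adjusted p = 0.0233) without the 4 arrays high in seminal vesicle genes. Cul7, Crebbp and Irs1, named after their values were seen, had differences of 0.66, 0.49 and -0.93 (limma adjusted p = 0.0260, 0.0436 and 0.0270). The call was lost for Cul7 without tumour 1 or normal prostate 1 (0.58 and 0.56), for Irs1 without normal prostate 1, 2, 4 or 7 (-0.83 to -0.87), and for Crebbp without any array other than tumours 5, 6 and 8 and normal prostates 3 and 9 (0.37 to 0.51).

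All 21 tested genes of the list of known E2F targets were higher in tumours, against 11.3% of all genes, with a median difference of 2.46 and a range of 0.998 to 3.97. Cdc6, a loader of the replication helicase, was dim on all 9 normal arrays and so passed the filter through the tumours alone, and without it the count was 20 of 20. Uhrf1, which carries DNA methylation through replication, was higher by 3.97 ± 0.439 (SE, limma adjusted p = 3.21e-05). The licensing factor gene Cdt1 averaged 11.62 ± 1.09 in tumours and 8.62 ± 0.376 in normal prostates (SD, n = 9 each, limma adjusted p = 5.25e-05). The helicase genes Mcm4 and Mcm5 were higher by 2.32 and 3.36 (limma adjusted p = 3.44e-05 and 3.55e-05). E2f7, a repressor of the E2F family that is itself an E2F target, was dim on 8 normal arrays and higher by 2.06 with dim values raised to the 40th percentile. Of 15 tested genes of mitosis, 14 were higher and none lower, with a median of 2.52. Bub1 and the kinetochore gene Nuf2 were dim on all 9 normal arrays, and without them 12 of 13 were higher. Mki67, a gene of dividing cells, averaged 11.82 ± 1.43 in tumours and 7.46 ± 1.29 in normal prostates (SD, n = 9 each, limma adjusted p = 0.000104). With the actin ratio as a covariate the counts were again 21 and 14.

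Components of Ras and MAP kinase signalling, the other pathway named with Trim59, were called about as often as all genes: 3 of 20 were higher and 2 lower (25%, against 24% of all genes), with a median of 0.13. Ksr1, a scaffold of the cascade, was higher by 1.34 (limma adjusted p = 0.00847), a call lost with the actin ratio in the fit (1.11, limma adjusted p = 0.0587) or in the bright batch alone (limma adjusted p = 0.0580). Other probe sets of Ksr1 gave -0.14 and -0.01, so its rise rests on a single probe set. Higher too were the phosphatase gene Dusp4 by 1.69 (limma adjusted p = 0.0399) and the ETS factor Etv5 by 1.37 (limma adjusted p = 0.0442). Phlda1, a growth factor response gene, was lower by -2.33 (limma adjusted p = 0.00924) and the kinase gene Araf by -0.97 (limma adjusted p = 0.0067). Other probe sets of Araf gave -0.04, -0.29, -0.50 and -0.67. The calls of Dusp4 and Etv5 were lost under quantile normalization and on leaving out any array other than tumours 2, 5, 6 and 8 and normal prostates 3 and 9 (1.54 to 1.71 for Dusp4 and 1.11 to 1.38 for Etv5). Among the ubiquitin-conjugating enzymes, from which RING ligases take ubiquitin, 2 of 30 were higher and 3 lower (16.7%, against 24% of all genes), with a median of -0.08. Ube2c, the partner of the anaphase-promoting complex, was higher by 3.43 ± 0.538 (SE, limma adjusted p = 0.000306), and Ube2t, the partner of the Fanconi anaemia ligase, by 2.18 ± 0.494 (SE, limma adjusted p = 0.00417). Ube2q2, Ube2g2 and Ube2f differed by -0.67, -0.75 and -0.36 (limma adjusted p = 0.00472, 0.0131 and 0.0357), and the Ube2f call was lost without tumour 1, 6, 8 or 9 or normal prostate 1, 3, 4 or 6 (-0.30 to -0.36).

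The genes whose pattern was most like that of Trim59 were found with values centred on each group's mean, so that the difference between tumours and normal prostates played no part. Over 18 arrays and 12790 genes the median correlation with Trim59 was -0.06 and the 98th percentile 0.75. The 6 genes with the highest values were Slbp (0.92), which binds histone messenger RNA, Cnot9 (0.92), a subunit of the deadenylation complex, Orc6 (0.92), a subunit of the origin recognition complex, the noncoding Dleu2 (0.91), the chromosome kinesin Kif4 (0.90) and the histone chaperone Dnajc9 (0.90). These correlations chose the genes, all genes share the array and tissue makeup of each sample, and no test of them is given. By 1416118_at Trim59 was dim in normal prostates, so the likeness is better read across the 9 tumours. There Orc6 had r = 0.996, the highest of all genes, Slbp 0.98, and Smc4, Dnajc9 and Kif4 0.96. Cnot9 had 0.95 and Dleu2 0.94 across the tumours, ranks 67 and 85 of all genes. Their higher places over 18 arrays draw also on the normal prostates, across which they had r = 0.75 and 0.77.

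Orc6 followed Trim59 through the order of tumours, with a lowest, median and highest log2 level of 8.47, 9.63 and 10.85. In normal prostates these were 8.17, 8.38 and 8.82. Tumours 2, 9 and 1 were highest in Orc6, and tumours 5 and 7 lowest. The tumour minus normal differences, which the choice did not use, were 1.20 for Orc6, 1.63 for Slbp, 0.86 for Cnot9, 1.78 for Dleu2, 1.68 for Kif4 and 1.94 for Dnajc9. All 6 were called higher, against 11.3% of all genes, with limma adjusted p of 0.00763, 0.000905, 0.00429, 0.000474, 0.00178 and 0.000329. Orc6 no longer passed once the actin ratio was in the fit (limma adjusted p = 0.0501) or in the bright batch alone (1.21, limma adjusted p = 0.0554). Orc6 was above the 40th percentile on all normal arrays, where Trim59 was dim by 1416118_at.

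At the other end, Gpt2 (-0.93), an enzyme that links alanine and glutamate metabolism, Hacd2 (-0.91), an enzyme of very long chain fatty acid elongation, and Acad11 (-0.90), an acyl-CoA dehydrogenase, ran opposite to Trim59. Hacd2 ranged from 10.51 through 11.89 to 13.61 in tumours, against 13.60, 13.87 and 14.34 in normal prostates, and was lowest in tumours 9 and 1. Its difference was -1.73 ± 0.398 (SE, limma adjusted p = 0.00461), that of Acad11 was -1.29 (limma adjusted p = 0.00989) and that of Gpt2 -0.48 (limma adjusted p = 0.145), which passed without tumour 5 (-0.63, limma adjusted p = 0.0291) and without the 4 arrays high in seminal vesicle genes (-0.89, limma adjusted p = 0.00208). In the bright batch alone the calls of Hacd2 and Acad11 were lost (limma adjusted p = 0.0502 and 0.0615). Other probe sets of Gpt2 gave -0.40, -0.10 and 0.22. Without centring, the genes most like Trim59 over the 18 arrays were the condensin subunit Ncapg (0.98), the cytokinesis gene Prc1 (0.97), the kinetochore gene Kntc1 (0.97), Smc4 (0.97), the replication clamp gene Pcna (0.96) and Mcm4 (0.96), where the 98th percentile of all genes was 0.86. These values include the group difference itself. Ncapg was dim on all 9 normal arrays and so passed the filter through the tumours alone.

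**Figure D4:**
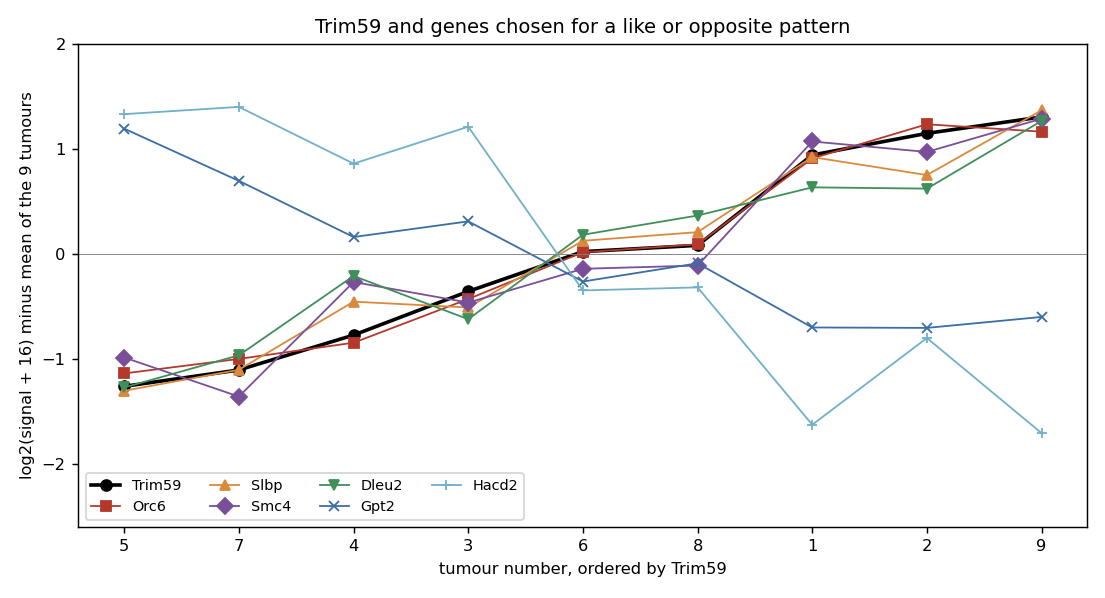
Log2(signal + 16) minus the mean of the 9 tumours for Trim59, 4 genes of a like pattern (Orc6, Slbp, Smc4 and Dleu2) and 2 of the opposite pattern (Gpt2 and Hacd2), with tumours ordered by Trim59 from low to high. Orc6 lies almost on the Trim59 line, and Gpt2 and Hacd2 are low where it is high.

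Of the 12 genes named for a like pattern, 10 have a promoter in the RefSeq table. Among these, 4 hold the CHR letters (Kif4, Kntc1, Ncapg and Prc1), 7 the CCAAT letters, 10 the Sp1 letters and 3 an E2F motif (Cnot9, Dnajc9 and Ncapg). Over all promoters the shares were 17.9%, 37.4%, 25.6% and 9.57%. Those shares count single promoters, while a gene counted here if any of its promoters matched. Kntc1, Ncapg, Pcna and Prc1 were chosen without centring, by values that include the group difference. The Trim59 promoter printed above holds the first 3 of these motifs and no E2F motif. Such matches are a description of letters and show no binding.

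Smc4 lies next to Trim59, and Dleu2 was among the genes most like it after centring, though 85th across the tumours alone. Both transcripts carry microRNAs of a single family. In RefSeq on GRCm38.p6, Mir15b and Mir16-2 lie within Smc4 on chromosome 3, and Mir15a and Mir16-1 within Dleu2 on chromosome 14. Their mature 5' arms are shown because they share 1 seed, bases 2 to 8, given in capitals:
mmu-miR-15b-5p: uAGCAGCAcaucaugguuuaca
mmu-miR-15a-5p: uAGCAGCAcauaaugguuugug
mmu-miR-16-5p: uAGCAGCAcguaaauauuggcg
The miR-16-5p sequence comes from both Mir16-1 and Mir16-2. The arrays measured the host transcripts and not the microRNAs, whose levels may differ from those of their hosts. Dleu2 had lowest, median and highest log2 levels of 7.90, 9.36 and 10.44 in tumours, against 6.61, 7.45 and 7.96 in normal prostates. The groups overlapped in a single tumour, tumour 5, and the other Dleu2 probe sets gave differences of 1.15 and 0.60.

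Across the 9 tumours, Trim59 was set against the mean log2 level of 5 gene lists, which made 5 relations. With the 21 E2F targets it gave r = 0.97 (exact permutation over 362880 pairings, two-sided, p = 0.000185, adjusted 0.000668) and rho = 0.95 (exact permutation p = 0.000353). Without tumours 7 and 5, the 2 farthest from the median score, r was 0.95. The E2F score was 9.35 to 12.05 in tumours and 7.78 to 8.65 in normal prostates. With the seminal vesicle score r was -0.84 (exact permutation p = 0.00643, adjusted 0.0107) and rho -0.88 (exact permutation p = 0.00308), and without tumours 9 and 1 r was -0.70. Tumours 5 and 7, the lowest in Trim59, and tumour 3, the sixth in order, were those high in seminal vesicle genes. Among the other 6 tumours, 9, 1 and 2 had E2F scores of 12.05, 11.66 and 11.62, and tumours 8, 6 and 4 had 10.81, 10.79 and 10.16. The first 3 were also the 3 highest in Trim59.

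Scores of mitosis, macrophage and luminal genes had a gap between tumours over 33.3% of their range, so no correlation over all 9 is given. In the mitosis score the gap set apart tumours 1, 2 and 9, which were also the highest in Trim59. Whether the relation to the E2F score is particular to E2F targets was not tested. In the macrophage score it set apart tumour 5 alone (11.86, the next 10.55). In the luminal score it set apart tumour 9 alone (9.40, the next 10.76). The widest gap of the E2F score was 29.9% of its range. The mitosis score was 8.58 to 11.59 in tumours and 6.85 to 8.04 in normal prostates. The macrophage score was 8.97 to 11.86 in tumours and 7.96 to 9.97 in normal prostates, and the luminal score was 9.40 to 13.20 in tumours and 11.40 to 13.93 in normal prostates. The batches hold 5 and 4 tumours, too few for a correlation. Without tumours 3, 5 and 7, each score had such a gap over the other 6 tumours. Without tumour 8, the tumour most like tumour 6, r was 0.97 for the E2F score and -0.85 for the seminal vesicle score. In normal prostates, where Trim59 was dim on every array by 1416118_at, the relations were not measured.

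**Figure D5:**
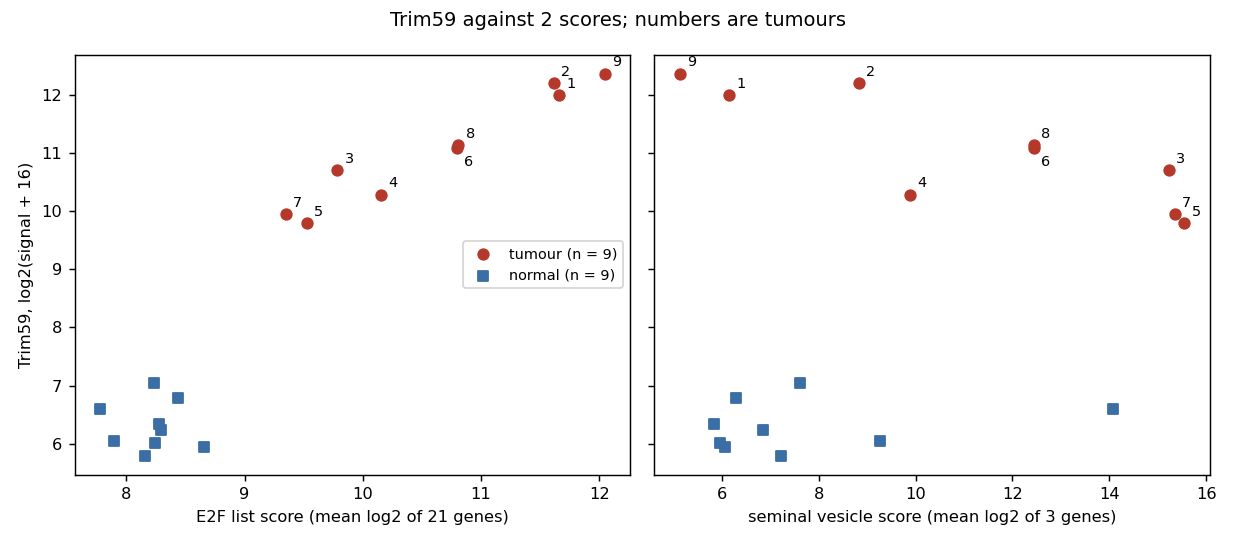
Trim59 (log2(signal + 16)) against the mean log2 level of 21 E2F targets (left) and of 3 seminal vesicle genes (right), with red circles numbered for the 9 tumours and blue squares for the 9 normal prostates. Within tumours Trim59 is higher where the E2F score is higher and lower where the seminal vesicle score is higher, and normal prostates lie below all tumours.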

How the data were processed

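The authors deposited linear intensities for each probe set, which per the submitters' processing notes came from MAS5, of no stated version. MAS5 scales each array by a single factor: the 2% trimmed mean of the deposited intensities was 500 on each of the 18 arrays. Dim values stay noisy, and no detection calls were used.

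The labels gave groups and replicate numbers. The platform annotation gave names to probe sets: 34945 of 45101 name 1 gene, 932 several, 9160 none, and 64 are controls. Values were taken as log2(signal + 16) without another normalization. Probe sets above the 40th percentile of their array on at least 9 of 18 arrays were kept (60.7%), and each of 12791 genes took its brightest kept probe set that names no other gene. Each was tested two-sided with group as the only term by limma 3.58.1 under R 4.3.3 (lmFit, eBayes), with Benjamini-Hochberg adjustment at 0.05. The code was tested on simulated data before use. Exact permutation tests used scipy 1.17.1 in Python 3.11.15, and figures matplotlib 3.10.9.

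The gene and the lists were chosen with earlier results of these data known. Genes named were Trim59, the 6 most and 3 least like it after centring on group means, the 6 most like it without centring, up to 5 per list by absolute t, every tested neighbour, Trim13, Ecsit, Rb1 and Mki67. Trim35, Trim27, Trim11, Cul7, Crebbp and Irs1 were named after their values were seen. Listed genes with no single-gene probe set are not analysed here. Neighbours and sequences came from RefSeq tables of GRCm38.p6; the arrays name no build.

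Alternatives tried were other pseudocounts (1 and 64), scalings, filters, probe set rules, an intensity trend, blocks for batch and replicate number, each batch alone and omission of each array. The omission of arrays high in seminal vesicle genes or of tumour 8 from the relations and the actin ratio as a covariate were added after seeing the data.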

Additional observations from a re-analysis of the deposited data

Results flagged for a closer look

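In 128 groups of 9 arrays, a single array stood apart from the other 8 by Dixon's test in 11, where chance alone gives about 1 in 20. Normal prostate 9, which was high in seminal vesicle genes, stood apart in 7 of them, all as log2 levels: Dnajc9 (9.78), Ecsit (9.77), Orc6 (8.82), Pola1 (9.25) and Trim10 (8.26) were highest there, and Phlda1 (10.43) and Ube2t (5.51) lowest. Ift80 was lowest in normal prostate 6 (5.27), Ncapg was highest in normal prostate 8 (6.20), where it was still dim, and Rbl1 was highest in normal prostate 3 (9.20). Among tumours, Trim10 was highest in tumour 7 (8.95). Neither probe set of Trim59 had such an array in either group.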

How the results depend on the processing

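The Trim59 difference of 4.75 stayed between 4.09 (pseudocount 64) and 5.24 (without the arrays high in seminal vesicle genes) under the scalings, blocks, batches and omissions tried, and between 4.58 and 4.90 when single arrays were left out. It was 1.46 by the dimmer probe set and 3.10 by the mean of both. The 3067 genes called became 1635 with the actin ratio as a covariate and 0 in the batch with dim spikes alone (4 tumours against 3 normal prostates). There limma gave 1639 genes an unadjusted p under 0.05, where about 640 are expected by chance. Leaving out single arrays gave 2455 to 3412. In that batch each of the 9 lists also had 0 calls. With the actin ratio the counts were 0 for the TRIM family, 1 for neighbours, 0 for binding partners, 5 for T antigen partners and 2 for Ras genes. Housekeeping centring gave 5 TRIM, 0 partner, 4 innate and 3 Ras calls, quantile normalization 3 innate and 3 Ras calls, and centring on the 75th percentile 4 innate calls. The bright batch alone gave 3 innate, 8 Ras and 3 conjugating enzyme calls. Omission of the arrays high in seminal vesicle genes gave 3 innate and 9 conjugating enzyme calls. The innate count was 2 with pseudocount 64, with the 60th percentile filter, with an intensity trend and with the mean of probe sets, which gave 5 TRIM calls. Without a filter 3 Ras genes passed, and with the 60th percentile filter 6 mitosis genes, since fewer were tested. The other causes were not tested. Leaving out single arrays gave 4 to 9 TRIM calls, 2 to 3 neighbours, 0 to 1 partner, 1 to 3 innate, 5 to 10 T antigen partners, 3 to 8 Ras, 14 to 15 mitosis, 4 to 7 conjugating enzyme and 21 to 21 E2F calls. No called direction was reversed among the results and alternatives run. The differences of Trim13, Becn1, Cdk5 and Kpna4, which were not called, changed sign under some alternatives, and that of Trim13 ran from -0.25 to 0.26 when single arrays were left out.

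Groups share replicate numbers, and the labels do not say whether these pair the arrays. Deviations from the group means correlated at -0.11 to 0.31, over 0.1 in 1 of 9 pairs. Such correlations cannot exclude a pairing. The replicate number as a block gave 2645 genes called, 0 partners and 2 innate genes.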

Other observations

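Trim59 and Trim13 sit in 2 parts of the genome that resemble each other. On chromosome 3 the order of RefSeq includes Smc4 with Mir15b and Mir16-2, then Trim59, Kpna4 and Arl14. On chromosome 14 it includes Arl11, Ebpl, Kpna3, Spryd7, Trim13 and Dleu2 with Mir16-1 and Mir15a. Both thus hold a TRIM gene, an importin alpha gene, an Arl gene and a host of miR-15 and miR-16 microRNAs. The genes of the chromosome 14 group were chosen after their values were seen. The microRNA hosts were higher in tumours in both places: Smc4 by 2.58 (limma adjusted p = 5.15e-05) and Dleu2 by 1.78 (limma adjusted p = 0.000474). The importin genes did not pass in either place, with Kpna4 at 0.10 (limma adjusted p = 0.718) and Kpna3 at 0.19 (limma adjusted p = 0.390). The TRIM genes differed between the places: Trim59 at 4.75, which chose it, and Trim13 at -0.003 (limma adjusted p = 0.997). Spryd7 (-0.10, limma adjusted p = 0.769) and Ebpl (-0.38, limma adjusted p = 0.495) did not pass. Whether the places differ was not tested.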
